A study of Mus musculus with 16 samples.

Results

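*Notch1*, *Notch2*, *Notch3* and *Notch4*, which encode the 4 Notch receptors of the mouse, and *Dtx1* and *Hes1*, which are known targets of Notch signalling, were examined for DNA methylation in splenic B and T cells. The genes were chosen by name, as 6 of 21938 protein-coding genes. Libraries of whole-genome bisulphite sequencing were made from the spleens of untreated C57BL/6J mice of both sexes aged 6 to 8 weeks. Resting B cells were enriched as CD43- cells and naive T cells as CD4+ CD62L+ cells by magnetic sorting. There were 8 libraries of each cell type, of which 4 were male and 4 female, and each sex and cell type had 2 libraries of bisulphite treatment (BS) and 2 of oxidative bisulphite treatment (oxBS). BS leaves 5-methylcytosine (5mC) and 5-hydroxymethylcytosine (5hmC) to be read as methylated, while oxBS leaves only 5mC. Samples were pooled from mice that the labels do not name, and a BS and an oxBS library may come from the same DNA, so p-values measure the spread between these libraries.

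Notch receptors are transmembrane proteins that are cut after they bind a ligand of the Delta or Jagged type on a neighbouring cell. The freed intracellular domain enters the nucleus and, with RBPJ and Mastermind-like proteins, activates target genes such as *Hes1*, a transcriptional repressor, and *Dtx1*, a ubiquitin ligase of the Deltex family that acts back on the pathway. NOTCH1 is known for committing thymic progenitors to the T lineage, and NOTCH2 for the formation of marginal zone B cells in the spleen.

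Stretches from called tiles of the genes are shown here, so that the CpGs behind the levels given later can be seen. All but 1 come from the tile with the largest difference of their gene in a direction, and the *Dtx1* exon stretch is shown because its tile was the least methylated of that gene in B cells. Each is taken from the mm10 sequence and written 5′ to 3′ on the strand of its gene, with the CpGs in capitals. The *Notch1* stretch lies in coding exon 25 at chr2:26468501-26468800 (minus strand), the *Dtx1* intron stretch in intron 2 at chr5:120704550-120704849 (minus strand) and the *Dtx1* exon stretch in coding exon 3 at chr5:120694585-120694884 (minus strand). The *Notch2* stretch lies in intron 2 at chr3:98054327-98054490 (plus strand), the *Notch3* stretch in intron 2 at chr17:32163723-32163966 (minus strand) and the *Hes1* stretch upstream of the gene at chr16:30060501-30060797 (plus strand).
Notch1 exon 25: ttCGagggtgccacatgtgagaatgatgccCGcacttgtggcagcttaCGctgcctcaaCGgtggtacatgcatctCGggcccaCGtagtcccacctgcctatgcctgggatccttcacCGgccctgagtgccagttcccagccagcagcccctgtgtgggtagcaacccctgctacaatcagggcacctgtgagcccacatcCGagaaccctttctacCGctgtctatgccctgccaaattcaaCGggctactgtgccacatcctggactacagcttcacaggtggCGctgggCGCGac
Dtx1 intron 2: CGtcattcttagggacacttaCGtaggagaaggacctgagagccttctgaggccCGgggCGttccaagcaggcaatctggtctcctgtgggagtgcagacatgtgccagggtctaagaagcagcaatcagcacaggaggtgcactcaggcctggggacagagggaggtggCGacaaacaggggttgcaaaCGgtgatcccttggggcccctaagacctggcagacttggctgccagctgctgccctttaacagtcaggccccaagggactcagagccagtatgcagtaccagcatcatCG
Dtx1 exon 3: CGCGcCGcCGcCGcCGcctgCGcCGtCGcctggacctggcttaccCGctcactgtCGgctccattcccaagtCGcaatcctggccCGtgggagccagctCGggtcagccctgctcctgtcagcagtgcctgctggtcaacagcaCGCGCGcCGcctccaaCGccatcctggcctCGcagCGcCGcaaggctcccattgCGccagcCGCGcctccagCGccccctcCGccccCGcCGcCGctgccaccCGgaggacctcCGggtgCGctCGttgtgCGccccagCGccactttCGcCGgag
Notch2 intron 2: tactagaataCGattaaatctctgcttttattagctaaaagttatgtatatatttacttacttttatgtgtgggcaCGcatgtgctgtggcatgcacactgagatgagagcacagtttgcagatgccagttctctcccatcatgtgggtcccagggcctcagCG
Notch3 intron 2: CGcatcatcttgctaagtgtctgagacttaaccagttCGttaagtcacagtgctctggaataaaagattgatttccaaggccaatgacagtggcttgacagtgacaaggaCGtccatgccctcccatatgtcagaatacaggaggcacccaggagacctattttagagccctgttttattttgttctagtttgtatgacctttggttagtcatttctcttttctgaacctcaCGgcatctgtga
Hes1 upstream: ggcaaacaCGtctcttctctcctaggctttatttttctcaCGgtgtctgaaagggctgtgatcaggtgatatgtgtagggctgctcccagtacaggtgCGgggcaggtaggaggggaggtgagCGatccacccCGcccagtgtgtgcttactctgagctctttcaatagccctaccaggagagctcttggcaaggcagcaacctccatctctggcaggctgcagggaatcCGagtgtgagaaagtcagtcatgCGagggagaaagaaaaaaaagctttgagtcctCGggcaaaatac

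The *Notch1* exon stretch holds 13 CpGs and the *Dtx1* exon stretch 38, while the *Notch2* stretch holds 3. Methylation at the *Notch1* and *Notch2* stretches was higher in B cells, and at the other stretches it was higher in T cells.

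Between 123693203 and 171130063 methylation calls were deposited per B cell library and between 154857425 and 170135949 per T cell library. That is 5.64 to 7.80 calls per CpG in B cells and 7.06 to 7.76 in T cells, too few for a level at a single CpG of a single library, so calls were pooled over regions. Between 79.5 and 81.5% of calls in B cell libraries were methylated, and between 78.5 and 79.7% in T cell libraries. Promoter methylation of marker genes followed the sorts. All 8 promoters of a B cell marker list were lower in B cells (list mean 10.9 to 19.99% in B cell libraries, 61.4 to 67.5% in T cell libraries), and 8 of 11 promoters of a T cell list were lower in T cells (11.9 to 18.8% against 60.5 to 64.6%). Of 11 promoters of cell types the gates could still hold, *Cd8a* and *Cd8b1* were lower in T cells and the myeloid gene *Lyz2* was lower in B cells, with list means of 53.9 to 58.5% and 49.6 to 55.3%. Both male BS libraries of B cells list no positions on unplaced contigs, and results without them are given where a call changes.

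For each gene, methylation was first taken over the promoter (1 kb to either side of the 5′ end of the gene record), the upstream region (from 10 to 1 kb before it) and the gene body (from 1 kb after it to the gene end). A level is the share of methylated calls in a library, values are means over libraries ± SD, and a difference is the mean of the 8 B cell libraries minus the mean of the 8 T cell libraries in percentage points. Cell types were compared with a quasi-binomial model with sex and assay as covariates, and p-values were adjusted over all genes or tiles of the genome by the Benjamini-Hochberg method. A region was called at an adjusted p under 0.05 with a difference of at least 10 points for promoters and 5 points for upstream regions and gene bodies. Where an exact test is named, it is the two-sided exact permutation test over libraries, which cannot give a p below 0.0001554 with 8 against 8. A level between 0 and 100% in a bulk library can come from a share of cells or alleles, and these cannot be told apart from partial methylation of every cell.

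**Figure D1:**
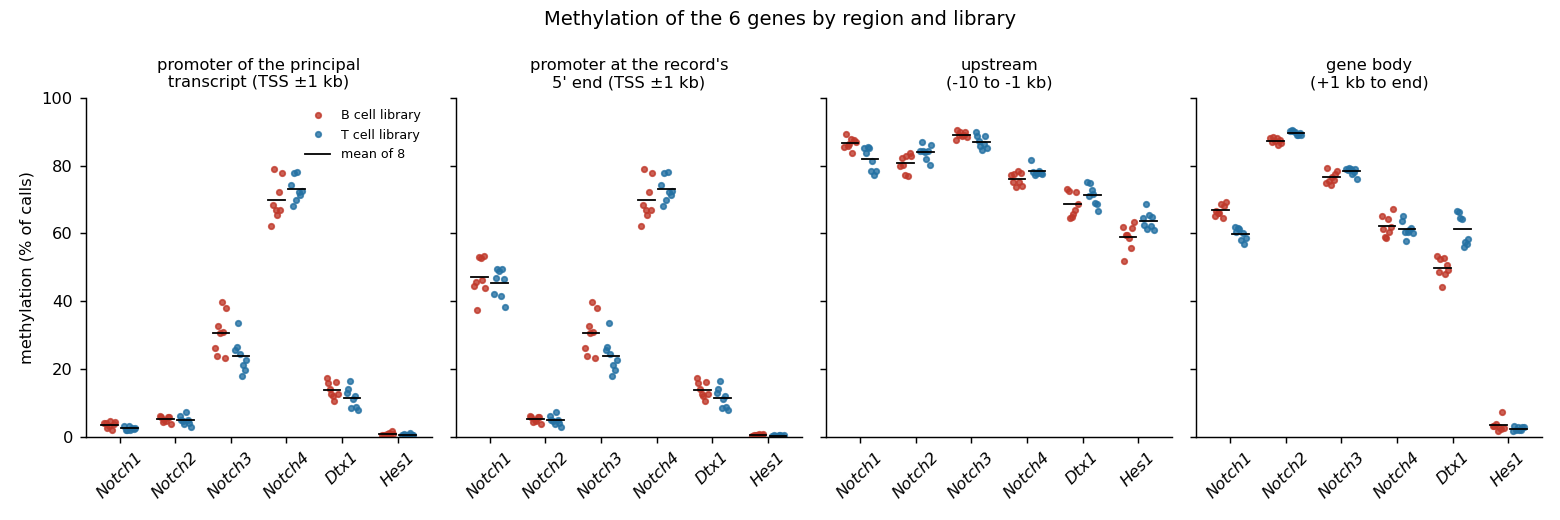
Methylation level in percent (y axis) of each library at the promoter of the principal transcript, the promoter at the 5′ end of the gene record, the upstream region and the gene body of the 6 genes (x axis), with a point per B or T cell library and a line at the mean of 8. The gene body means in B against T cells are 66.8 against 59.9% in *Notch1*, 87.4 against 89.7% in *Notch2* and 49.9 against 61.3% in *Dtx1*. At all 6 promoters the libraries of both cell types overlap.

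None of the 6 promoters was called, and in each the libraries of both cell types overlapped. The *Notch3* promoter alone had an unadjusted p under 0.05. Among promoters of all protein-coding genes, 1.67% were called with B cells higher and 1.26% with T cells higher, and the median difference was 0.570 points. The promoters nevertheless covered most of the possible range of levels, from that of *Hes1* near 0 to that of *Notch4* at 69.9% in B cells and 73.1% in T cells.

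*Notch1* (ENSMUSG00000026923.15) spans chr2:26457903-26516663 in mm10 on the minus strand, and its principal transcript with 34 exons starts 12841 bp inside the record's 5′ end. At the 5′ end of the record, 28 CpGs stood at 47.1 ± 5.63% in B cells and at 45.4 ± 4.23% in T cells. The lowest, median and highest B cell libraries were at 37.4, 45.9 and 53.3%, and the T cell libraries at 38.4, 46.7 and 49.6%. The cell types differed by 1.70 points, less than the SD of either (exact p = 0.5002, quasi-binomial adjusted p = 0.682). At the start of the principal transcript, 129 CpGs stood at 3.58 ± 0.956% in B cells and 2.48 ± 0.523% in T cells, a difference of 1.10 points that did not pass adjustment (exact p = 0.0162, quasi-binomial adjusted p = 0.164). With promoters placed at principal transcripts, 1.6% of all genes were called higher in B cells, 1.36% higher in T cells and none of the 6 genes.

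The *Notch2* promoter (ENSMUSG00000027878.11, chr3:98013527-98150361, plus strand, 34 exons) was nearly free of methylation, with 131 CpGs at 5.16 ± 0.854% in B cells and 4.90 ± 1.34% in T cells (exact p = 0.647). The B cell libraries ran from 3.70 to 6.05% and the T cell libraries from 2.97 to 7.30%, so neither cell type stood apart. The *Notch3* promoter (ENSMUSG00000038146.8, chr17:32120820-32166852, minus strand, 33 exons) was intermediate. Its 101 CpGs stood at 23.3, 30.8 and 39.8% in the lowest, median and highest B cell libraries and at 18.0, 23.5 and 33.5% in the T cell libraries. The means of 30.7 ± 6.13% and 23.9 ± 4.82% differed by 6.77 points, with overlapping groups (exact p = 0.0295, quasi-binomial adjusted p = 0.142). In BS libraries the difference was 0.907 points and in oxBS libraries 12.6 points, but the test of that contrast did not pass adjustment (quasi-binomial adjusted p = 0.453).

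The *Notch4* promoter (ENSMUSG00000015468.14, chr17:34564268-34588503, plus strand, 30 exons) was methylated in both cell types. Its 26 CpGs stood at 69.9 ± 5.96% in B cells and 73.1 ± 3.56% in T cells (exact p = 0.202), with B cell libraries between 62.2 and 78.9% and T cell libraries between 68.2 and 78.2%. The *Dtx1* promoter (ENSMUSG00000029603.15, chr5:120680202-120711927, minus strand, 10 exons) had low levels, with 95 CpGs at 13.96 ± 2.36% in B cells and 11.5 ± 3.06% in T cells (exact p = 0.0953). Its B cell libraries, from 10.4 to 17.5%, overlapped its T cell libraries, from 7.83 to 16.6%. The *Hes1* promoter (ENSMUSG00000022528.8, chr16:30064384-30067796, plus strand, 4 exons) was almost fully unmethylated. Over 172 CpGs the lowest, median and highest libraries were at 0.209, 0.53 and 0.912% in B cells and at 0.0914, 0.393 and 0.622% in T cells, a difference of 0.191 points (exact p = 0.0726).

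No upstream region of the 6 genes was called, against 6.43% of all genes called with B cells higher and 2.72% with T cells higher. Of the 6, only *Notch1* passed the adjusted p without the limit. Among 21497 upstream regions of all genes, 2811 passed it with B cells higher and 1226 with T cells higher. *Notch1* was nearest to a call, at 86.7 ± 1.68% in B cells and 81.9 ± 3.51% in T cells. Its difference of 4.75 points passed the test but lay under the limit of 5 points (exact p = 0.00280, quasi-binomial adjusted p = 0.0104), and B cell libraries from 83.8 to 89.3% overlapped T cell libraries from 77.1 to 85.5%. The *Notch1* difference was 1.78 points in BS and 7.73 points in oxBS libraries, a contrast that was not tested for upstream regions. Upstream of *Hes1* the difference was -4.75 points, from 59.1 ± 3.69% in B cells and 63.8 ± 2.51% in T cells (exact p = 0.00513, quasi-binomial adjusted p = 0.0586). The differences of *Notch2*, *Notch3*, *Notch4* and *Dtx1* ran from -3.28 to 2.06 points. Leaving out B cell library 11 or T cell library 5, 7, 13 or 15 brought the *Notch1* difference to between 5.03 and 5.27 points, and leaving out B cell library 10 or T cell library 7 or 8 brought the *Hes1* difference to between -5.17 and -5.10 points, so that each was then called.

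Gene bodies of *Notch1* and *Dtx1* were called, in opposite directions. Across all protein-coding genes, 7.92% of gene bodies were called with B cells higher and 1.93% with T cells higher, with a median difference of 0.711 points. Without the limit, 5714 of 20467 gene bodies passed the adjusted p with B cells higher and 1396 with T cells higher. How many of all gene bodies separated the cell types without overlap was not counted. The *Notch1* body window starts 1 kb inside the record, and the principal transcript 12841 bp inside it. The window thus also holds the promoter of that transcript and sequence before it. Over 936 CpGs, the *Notch1* body stood at 66.8 ± 1.70% in B cells (64.6, 66.4 and 69.2% in the lowest, median and highest libraries) and at 59.9 ± 1.90% in T cells (56.8, 60.3 and 62.0%). Every B cell library was above every T cell library, and the difference of 6.93 points passed the test (exact p = 0.0001554, quasi-binomial adjusted p = 0.000136). With BS libraries alone it was 4.55 points, under the limit, and with female libraries alone 6.13 points, which did not pass adjustment (quasi-binomial adjusted p = 0.0546).

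Over 606 CpGs, the *Dtx1* body stood at 49.9 ± 3.03% in B cells (44.3, 49.9 and 53.4%) and at 61.3 ± 4.58% in T cells (56.0, 61.3 and 66.6%). Here every T cell library was above every B cell library, with a difference of -11.4 points (exact p = 0.0001554, quasi-binomial adjusted p = 0.000321). With male or female libraries alone the difference was -11.9 or -10.8 points and no longer passed adjustment (quasi-binomial adjusted p = 0.0609 and 0.0698).

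The *Notch2* body, the longest with 1763 CpGs, was highly methylated in both cell types and also separated them without overlap. B cell libraries lay at 86.2, 87.4 and 88.4% and T cell libraries at 89.0, 89.7 and 90.5%. The difference of -2.32 points passed the test but was under the limit (exact p = 0.0001554, quasi-binomial adjusted p = 6.66e-05). Bodies of *Notch3* (76.5 ± 1.76 against 78.4 ± 1.15%), *Notch4* (62.2 ± 3.12 against 61.3 ± 2.27%) and *Hes1* (3.402 ± 1.68 against 2.43 ± 0.590%) overlapped between cell types, with quasi-binomial adjusted p of 0.0647, 0.721 and 0.235. The *Hes1* difference of 0.972 points was 0.423 points without B cell library 2.

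To find where in the genes the cell types differed, calls were pooled over tiles of 500 bp from 10 kb upstream of each gene to its end. A tile was tested where it held 3 or more CpGs and where 5 libraries of each cell type had 20 or more calls, and a call required an adjusted p under 0.05 with 20 points or more between the means. In the 6 windows 599 of 722 tiles were tested and 66 (11.02%) were called, with B cells higher in 31 and T cells higher in 35. Genome-wide, 1.96% of tiles were called with B cells higher and 1.11% with T cells higher, and 3.84% of the tiles in windows of protein-coding genes were called in either direction. At least 1 tile higher in B cells was called for 38.8% of protein-coding genes and at least 1 higher in T cells for 29.6%. Without both male BS libraries of B cells, 58 of the 64 tiles still tested were called. In 60 of the 66 called tiles the libraries of the cell types did not overlap. The runs described below were joined from tiles called in the same direction. Their difference and lack of overlap thus follow largely from how they were chosen.

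**Figure D2:**
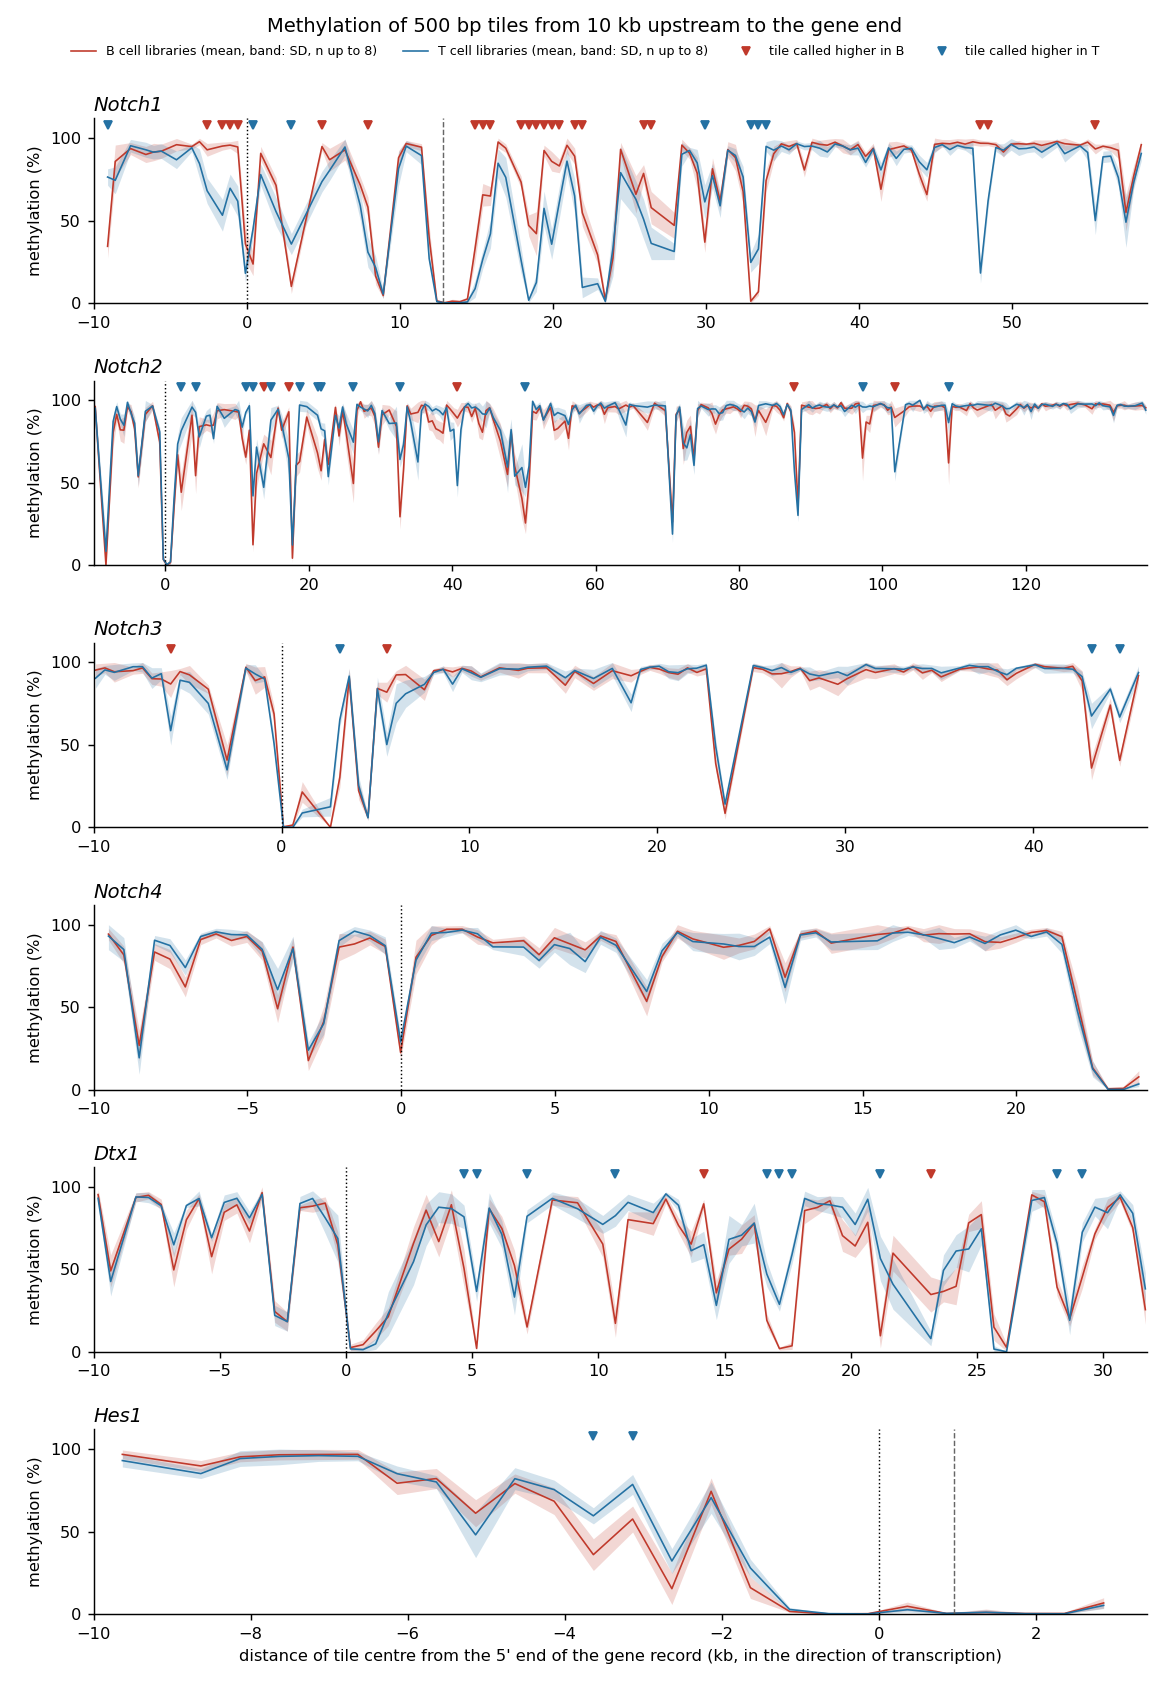
Methylation level in percent (y axis) over 500 bp tiles across the window of each gene against distance in kb from the 5′ end of the gene record (x axis), with lines for the B and T cell means, bands for the SD, triangles for called tiles, a dotted line at the 5′ end of the record and a dashed line at the start of the principal transcript. Called tiles are spread over *Notch1* (29) and *Dtx1* (12), gather in the 5′ part of *Notch2* (18 in all) and are absent from *Notch4*.

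The genes differed in how many tiles were called. In *Notch1*, 29 of 115 tested tiles (25.2%) were called, 22 with B cells higher and 7 with T cells higher. Of 16320 protein-coding genes with at least 20 tested tiles, 203 (1.24%) had a share at least as high. In *Dtx1*, 12 of 75 tiles (16.0%) were called, 10 of them higher in T cells, and 4.13% of genes had a share at least as high. In *Notch2*, 18 of 233 tiles (7.73%) were called, 13 of them higher in T cells. *Notch3* had 5 called tiles of 88, *Hes1* 2 of 25 and *Notch4* 0 of 63. The share of genes at least as high was 16.2% for *Notch2*, 23.8% for *Notch3* and 15.7% for *Hes1*. The single *Notch4* tile that passed the test, 7018 bp upstream of the gene at chr17:34557001-34557500, stood at 62.3 ± 6.04% in B cells and 74.0 ± 4.66% in T cells, with overlapping libraries and a difference of -11.7 points (quasi-binomial adjusted p = 0.0338).

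Of 306 tested intron tiles, 20 were called with B cells higher and 24 with T cells higher. Of 175 exon tiles the counts were 4 and 6, and of 118 tiles before the principal transcript 7 and 5. Exons 29 to 30 at the gene end of *Notch4* were nearly unmethylated, as 31 CpGs there stood at 0.483 ± 0.784% in B cells and 0.143 ± 0.221% in T cells.

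*Notch1* differed most in exon 25. In the tile at chr2:26468501-26469000, which holds the 13 CpGs of the sequence printed above, B cells were almost fully methylated and T cells mostly unmethylated. The lowest, median and highest B cell libraries were at 95.0, 96.7 and 100% and the T cell libraries at 10.9, 17.7 and 28.0%. The means of 96.9 ± 1.84% and 18.1 ± 6.03% differed by 78.7 points (exact p = 0.0001554, quasi-binomial adjusted p = 9.27e-09), with a median of 140 calls per library. Each of the 13 CpGs, pooled over libraries, was higher in B cells by 48.0 to 91.6 points. CpG 11 of the sequence, counted from its 5′ end, kept the most methylation in T cells (49.4%) and CpG 10 the least (2.22%). The next tile towards the gene end, over exons 25 to 26, was also higher in B cells (96.8 ± 1.37 against 62.1 ± 4.59%).

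The longest run of *Notch1* tiles higher in B cells lay in intron 2, from 26494501 to 26499000. Its 8 called tiles span 4500 bp and 59 CpGs, centred 7072 bp inside the principal transcript. B cell libraries lay at 67.8, 72.3 and 73.3% and T cell libraries at 25.8, 35.0 and 43.9%, a difference of 36.9 points with no overlap. Over both assays, T cell libraries spread more widely than B cell libraries there (SD 6.65 against 2.11 points). The difference of the run was 29.9 points in BS and 43.9 points in oxBS libraries, a contrast that was not tested for the run. Within the run, the tile at 26498001 fell to 1.64 ± 1.36% in T cells while B cells stood at 47.0 ± 6.41%.

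The next longest run higher in B cells lay just before the 5′ end of the gene record, from 26517001 to 26519500, with 4 called tiles and 27 CpGs. B cell libraries lay at 91.2, 94.3 and 96.1% and T cell libraries at 59.3, 62.6 and 73.0%, a difference of 29.7 points. On the other side of the record's 5′ end, the tile at 26516001 was higher in T cells by 21.3 points (23.6 ± 7.03 against 44.9 ± 5.15%). The promoter window of *Notch1* thus held called tiles of opposite sign. A window of 2 kb to either side, which takes in more of the upstream run, was called higher in B cells by 10.9 points (quasi-binomial adjusted p = 0.00243).

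Of the 7 *Notch1* tiles higher in T cells, 3 adjoined in intron 4, from 26482501 to 26484000, at 26.5 ± 3.505% in B cells against 50.2 ± 5.99% in T cells. The one with the largest difference lay 9087 bp upstream of the record, at chr2:26525501-26526000. Its B cell libraries were at 27.1, 33.2 and 47.1% and its T cell libraries at 71.7, 74.9 and 86.8%, and the groups did not overlap. The difference of -42.0 points passed the test (quasi-binomial adjusted p = 2.03e-06), and all 8 CpGs were higher in T cells. With BS libraries alone it just missed adjustment (quasi-binomial adjusted p = 0.0523). Around the start of the principal transcript, where exon 1 holds 55 CpGs in the tile at 26503501, the gene was unmethylated in both cell types (0.162 ± 0.185 and 0.0826 ± 0.168%).

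**Figure D3:**
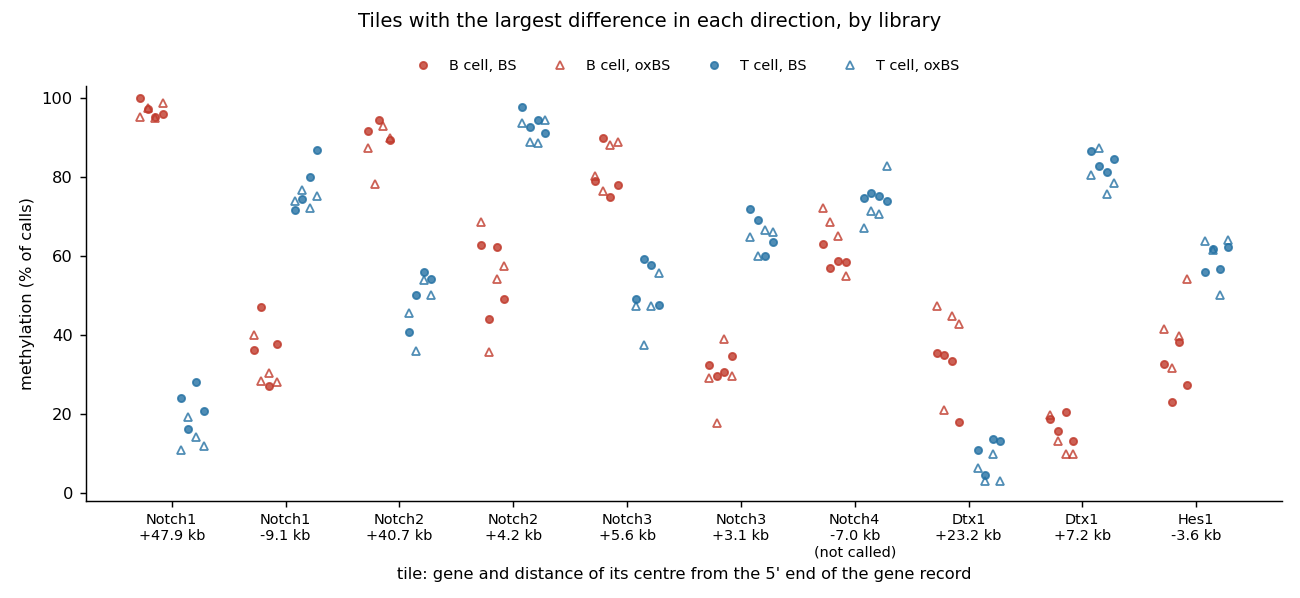
Methylation level in percent (y axis) of each library in the tiles with the largest difference in each direction per gene, named on the x axis by gene and distance in kb from the 5′ end of the gene record, with filled circles for BS and open triangles for oxBS libraries of B and T cells. The *Notch1* exon 25 tile (96.9 against 18.1%) and the *Dtx1* intron 2 tile (15.0 against 82.2%) separate the cell types furthest, and the *Notch4* and *Hes1* tiles overlap.

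In *Notch2*, 10 of the 13 tiles higher in T cells lay in intron 1, and the other 3 lay in introns 2, 12 and 19. The largest difference of these was 4223 bp from the gene start, at chr3:98017501-98018000. Its B cell libraries spread over 35.6, 55.9 and 68.5% and its T cell libraries over 88.7, 93.2 and 97.8%. The means of 54.3 ± 10.9% and 92.7 ± 3.06% differed by -38.4 points (quasi-binomial adjusted p = 5.03e-05). Its 7 CpGs were uneven, since the differences ran from -85.7 to -7.62 points and B cell levels from 5.88 to 90%. With oxBS libraries alone this tile did not pass adjustment (quasi-binomial adjusted p = 0.107).

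Both runs of *Notch2* tiles were higher in T cells and in intron 1. Over 34 CpGs from 98024501 to 98026000, B cell libraries stood at 42.5 ± 1.93% and T cell libraries at 69.4 ± 3.34%. From 98034501 to 98035500, where the annotation also places the gene *Gm42819*, 14 CpGs stood at 61.7 ± 5.75 and 86.4 ± 1.85%. The differences were -26.9 and -24.7 points. Libraries did not overlap in either run, which the choice of called tiles makes likely.

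The opposite pattern was strongest in intron 2 of *Notch2*, in the tile at chr3:98054001-98054500, of which a stretch with 3 of its 4 CpGs is printed above. The 7 B cell libraries with enough calls were at 78.3, 90 and 94.6% in the lowest, median and highest, and the T cell libraries at 36, 50 and 56%. The difference was 40.9 points (exact p = 0.0003108, quasi-binomial adjusted p = 7.38e-05), with a median of 28 calls per library over 4 CpGs. The CpGs shared the direction but not the size, since the first CpG of the sequence stood at 95.0% in B cells and 93.0% in T cells, and the third at 93.8 and 41.7%. The CpG of the tile outside the printed stretch, at 98054032, differed most (84.8 against 18.75%). The 5′ end of *Notch2* was unmethylated, with 67 CpGs at 0.136 ± 0.259% in B cells and 0.352 ± 0.668% in T cells. A tile of 3 CpGs 8277 bp upstream of the gene had no methylated call among 137 calls in B cells, which allows a level of up to 2.19%, and stood at 8.36 ± 7.76% in T cells over 5 libraries (not called, quasi-binomial adjusted p = 0.108).

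Called tiles of *Notch3* lay towards both ends of the gene, and those towards the 5′ end were of both signs. In intron 2, 3102 bp from the gene start, the tile at chr17:32163501-32164000 was higher in T cells. B cell libraries were at 17.8, 30.1 and 39.0% and T cell libraries at 60, 65.4 and 72%, with no overlap and a difference of -35.0 points (exact p = 0.0001554, quasi-binomial adjusted p = 3.86e-05). The difference came from the 5′ side of the printed sequence, where CpGs 1 and 2 stood at 2.17 and 6.45% in B cells and at 72.7 and 69.8% in T cells, while CpG 4 was at 78.2 and 84.6%.

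In the same intron of *Notch3*, 5602 bp from the gene start, the tile at chr17:32161001-32161500 was higher in B cells. Its B cell libraries were at 75, 79.7 and 90% and its T cell libraries at 37.5, 48.3 and 59.3%, a difference of 31.8 points (exact p = 0.0001554, quasi-binomial adjusted p = 0.000126). With BS libraries alone the differences of -34.4 points at 32163501 and 27.1 points at 32161001 did not pass adjustment (quasi-binomial adjusted p = 0.0773 and 0.116). The other called tiles were 1 higher in B cells 5898 bp upstream of the gene and 2 higher in T cells in exon 33 and intron 32, where the annotation also places the gene *Gm17276*. In exon 2, a tile of 4 CpGs had no methylated call among 262 calls in B cells, which allows a level of up to 1.15%, and stood at 12.5 ± 5.67% in T cells (quasi-binomial adjusted p = 0.000541, under the limit of 20 points). In intron 1, 602 bp from the gene start, 31 CpGs had no methylated call among 1325 calls in T cells, which allows up to 0.226%, and stood at 1.39 ± 0.818% in B cells.

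In *Dtx1*, unlike in *Notch1*, most called tiles were lower in B cells. In 7 of the 75 tested tiles only B cells were at 20% or less, in 1 only T cells were, and in 7 both were at 20% or less. The largest difference lay in intron 2, 7177 bp from the gene start, in the tile at chr5:120704501-120705000. B cell libraries were at 9.86, 14.3 and 20.5% and T cell libraries at 75.8, 82.1 and 87.4%. The means of 15.0 ± 4.22% and 82.2 ± 3.96% differed by -67.2 points (exact p = 0.0001554, quasi-binomial adjusted p = 1.55e-08), with a median of 92.5 calls per library. In the printed sequence, CpGs 3 to 7 stood at 1.05 to 2.74% in B cells and at 50.6 to 86.6% in T cells, and CpGs 1 and 2 at 33.7 and 38.6% in B cells and 91.4 and 97.1% in T cells. Each of the 8 CpGs of the tile was higher in T cells, by 43.0 to 85.4 points.

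The run with the most CpGs in any of the 6 genes was in coding exon 3 of *Dtx1*, where 92 CpGs lay in the 3 tiles from 120694001 to 120695500. B cell libraries were at 4.11, 6.36 and 9.22% and T cell libraries at 33.6, 40.2 and 44.4%, a difference of -33.4 points with no overlap. Its middle tile, from which the GC-rich sequence with 38 CpGs is printed, was the least methylated tile of the *Dtx1* window in B cells. With a median of 416 calls per library it stood at 1.90 ± 0.894% in B cells and 28.7 ± 4.07% in T cells (quasi-binomial adjusted p = 9.63e-08). Another run, over exons 4 to 7 from 120682501 to 120684000, had 46 CpGs at 36.9 ± 2.42% in B cells and 55.7 ± 5.70% in T cells, with no overlap.

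Among the 2 *Dtx1* tiles higher in B cells, the larger difference was in intron 3 at chr5:120688501-120689000. B cell libraries were at 18.0, 35.1 and 47.3% and T cell libraries at 2.94, 7.96 and 13.5%, a difference of 26.7 points (quasi-binomial adjusted p = 0.00122). With either assay alone this tile did not pass adjustment. A tile of 8 CpGs in the same intron, 26177 bp from the gene start, had no methylated call among 669 calls in T cells, which allows up to 0.448%, and stood at 2.58 ± 2.12% in B cells.

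In *Hes1*, both called tiles adjoined between 30060501 and 30061500, centred 3384 bp before the gene record, and both were higher in T cells. Over their 17 CpGs, B cell libraries were at 35.8, 46.3 and 60.5% and T cell libraries at 61.6, 67.8 and 74.5%, a difference of -21.7 points without overlap. Without B cell library 4 or 12 or T cell library 7, only 1 of these tiles was called. In the tile at chr16:30060501-30061000, B cell libraries at 23.1, 35.4 and 54.1% overlapped T cell libraries at 50, 61.7 and 64.1%. Its difference was -23.5 points (exact p = 0.0003108, quasi-binomial adjusted p = 0.00160), and with either assay alone it was not called. All 11 CpGs were higher in T cells, 7 of them by at least 20 points. In the printed sequence the first CpG stood at 12.8% in B cells against 61.3% in T cells, and the fourth at 79.6 against 81.0%. Across the 5′ end of the gene record, a tile of 60 CpGs centred 134 bp before it was nearly unmethylated. It stood at 0.169 ± 0.197% in B cells and 0.0574 ± 0.107% in T cells.

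**Figure D4:**
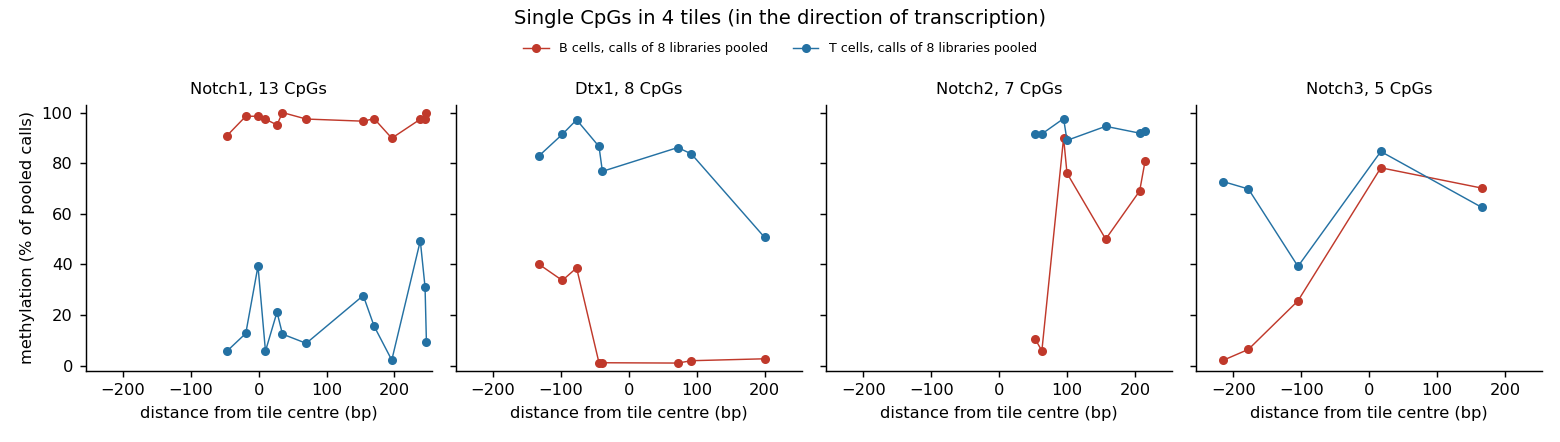
Methylation level in percent of single CpGs, with calls pooled over the libraries of a cell type (y axis), against distance in bp from the tile's centre (x axis), in tiles of *Notch1* (13 CpGs), *Dtx1* (8), *Notch2* (7) and *Notch3* (5). All CpGs of the *Notch1* tile differ by 48.0 to 91.6 points and those of the *Dtx1* tile by 43.0 to 85.4 points, while in the *Notch2* and *Notch3* tiles some CpGs differ by under 20 points.

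BS and oxBS libraries were compared within each cell type, since BS minus oxBS estimates 5hmC. In T cells, 24.9% of all gene bodies had BS above oxBS at an adjusted p under 0.05, with a median difference of 1.27 points, and in B cells 0%. The bodies of *Dtx1*, *Notch2* and *Notch1* were among those called in T cells. Differences in B cells ran from -2.51 to 0.580 points over the 6 genes, and none had an unadjusted p under 0.05.

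The *Dtx1* body had the largest difference of the 6. Its BS libraries of T cells stood at 66.6, 66.4, 64.7 and 64.2% and its oxBS libraries at 56.0, 57.4, 56.8 and 58.3%. Every BS library was above every oxBS library, by 8.35 points on average (exact p = 0.028571, the smallest that 4 against 4 allows, quasi-binomial adjusted p = 0.00386). Within a sex, with 2 libraries per assay, BS exceeded oxBS by 6.89 points (male) and 9.80 points (female), and neither passed adjustment (quasi-binomial adjusted p = 0.341 and 0.356). In B cells the means were 49.7 ± 4.14% in BS and 50.2 ± 2.04% in oxBS libraries.

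The *Notch1* body stood at 62.0, 60.5, 61.6 and 61.5% in the BS libraries of T cells and at 58.0, 60.1, 56.8 and 58.6% in the oxBS libraries. The difference was 3.03 points (exact p = 0.028571, quasi-binomial adjusted p = 0.0471), and the call was lost when T cell library 5, 6, 7, 8, 13, 14 or 15 was left out (2.49 to 3.31 points, quasi-binomial adjusted p of 0.0607 to 0.128) or when CpGs under 5 calls were dropped (2.898 points, quasi-binomial adjusted p = 0.0984). For *Notch2* it was 1.08 points, from 90.2 ± 0.225% and 89.2 ± 0.241% (quasi-binomial adjusted p = 0.0139), and without T cell library 13 or 16 it was 1.05 or 1.06 points and no longer called. Bodies of *Notch3*, *Notch4* and *Hes1* differed by 1.35, 0.916 and 0.0743 points and were not called.

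The difference between B and T cells also differed between the assays at both called gene bodies. The difference at *Dtx1* was -15.8 points in BS and -6.92 points in oxBS libraries (quasi-binomial adjusted p of the contrast 0.0271), and at *Notch1* it was 4.55 and 9.31 points (quasi-binomial adjusted p of the contrast 0.0454). This contrast passed adjustment for 16.5% of all gene bodies.

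**Figure D5:**
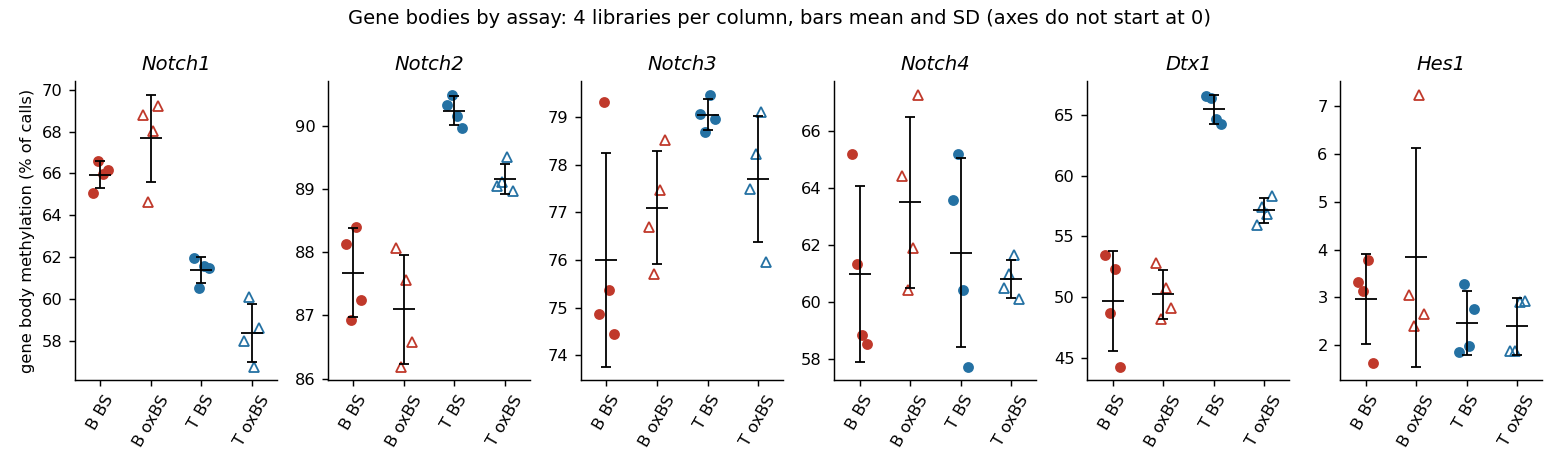
Methylation level in percent (y axis) of the gene bodies of the 6 genes in BS and oxBS libraries of B and T cells, with a point per library, bars for the mean and SD of 4 libraries and a scale of its own, not starting at 0, in each panel. In T cells the BS libraries of *Dtx1* (64.2 to 66.6%) lie above all oxBS libraries (56.0 to 58.3%), while the B cell libraries overlap.

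At single tiles the assay effect could not be called, since no tile of the genome passed adjustment in either cell type (0%). Without adjustment, 63 of 599 tiles of the 6 genes (10.5%) had p under 0.05 in T cells, against 4.25% of all tiles, and 10 (1.67%) in B cells, against 0.948%. In *Dtx1* these were 31 of 75 tiles, each with BS above oxBS, and BS was above oxBS in 68 of the 75 tiles with a median of 7.33 points. In *Notch1* they were 15 of 115, with BS above oxBS in 102 tiles and a median of 4.003 points. Over all tiles of the genome the median in T cells was 0.884 points, and the share with BS above oxBS was not counted. The widest difference of *Notch1* was in intron 2 at 26492001 (92.2% in BS and 65.9% in oxBS libraries of T cells, 93.6 and 92.8% in B cells). That of *Dtx1* was in intron 3 at 120687001 (74.3 and 50.4% in T cells, 77.9 and 78.4% in B cells). No *Hes1* tile had p under 0.05 in T cells. No promoter of any gene was called in either cell type (0%). The *Notch3* promoter, at 27.5% in BS and 20.4% in oxBS libraries of T cells, was the only one of the 6 with an unadjusted p under 0.05 (quasi-binomial adjusted p = 0.451).

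No promoter, gene body or tile of the 6 genes differed between male and female libraries at an adjusted p under 0.05, where 2.35% of promoters, 1.5% of gene bodies and 0.0764% of tiles did among all. The shares among all include the X and Y chromosomes, while the 6 genes are autosomal. Among the promoters and bodies the *Notch2* promoter had the smallest p, with 4.34% in male and 5.72% in female libraries (exact p = 0.00575, quasi-binomial adjusted p = 0.290). Without adjustment, 21 tiles (3.51%) had p under 0.05, against 3.10% of all tiles, and the contrast of cell type by sex had 15 (2.50%) against 2.67%.

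Of 51 other genes of the pathway, 2 promoters were called higher in B cells and none higher in T cells (1.67 and 1.26% of all promoters). They belong to *Ptcra*, which encodes the pre-T cell receptor alpha chain (93.5 against 74.5%, quasi-binomial adjusted p = 1.48e-06), and *Il2ra*, which encodes the interleukin 2 receptor alpha chain (32.7 against 12.4%, quasi-binomial adjusted p = 0.000258). Upstream regions of 6 were called with B cells higher and of 3, *Aph1a*, *Cr2* and *Heyl*, with T cells higher (6.43 and 2.72% of all genes). Gene bodies of 7 were called higher in B cells and none higher in T cells (7.92 and 1.93% of all genes). Of 4198 tiles 6.05% were called, 150 with B cells higher and 104 with T cells higher, against 3.84% of the tiles in windows of all protein-coding genes. By role, the share ran from 2.31% in ligand genes and 3.05% in genes of endocytosis and turnover to 9.60% in the other Deltex genes and 9.76% in the other target genes.

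The most tiles higher in B cells were in *Maml2*, a nuclear coactivator of Notch (39 of 377). It was followed by *Tle3* (14 of 106), *Maml3* (14 of 698), *Dtx2* (10 of 84) and *Fbxw7* (9 of 145). Genome-wide, 1.96% of tiles were called with B cells higher and 1.11% with T cells higher. Long windows hold more tested tiles, so these counts do not rank the genes by share. The strongest *Maml2* tile stood at 92.2% in B cells against 1.73% in T cells. Tiles higher in T cells were called in *Maml3* (25 of 698) and *Maml2* (12 of 377), and in *Adam17* (5 of 67), *Fbxw7* (5 of 145) and *Heyl* (5 of 48). All of these genes, like *Notch1*, *Notch2*, *Notch3* and *Dtx1*, held called tiles of both signs, and so did other genes of the pathway, among them *Il2ra*. How many of all genes held called tiles of both signs was not counted. The pathway genes with the most called tiles were also the likeliest to hold both.

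For each gene with a called tile, the level over its called tiles was compared with promoters and bodies of all genes across the 16 libraries. The called tiles were chosen for differing between the cell types, and tiles of both signs were averaged where a gene had both. The points also share cell type. A high r with genes that separate the cell types was thus built in. These correlations are a description only and do not rank genes by the size of that separation. The closest to *Notch1* (64.8% in B cells, 44.4% in T cells) were the bodies of *Lat* (r = 0.995), *Cd28* (r = 0.994) and *Cd247* (r = 0.992), all known for T cell receptor signalling or costimulation. The closest to *Dtx1* (27.4 and 57.1%) were the promoters of *Cd74* (r = 0.991) and *Cd79a* (r = 0.988), known from antigen presentation and the B cell receptor, and the body of *Acp6* (r = 0.986). For *Notch2* they were the bodies of *Epn1*, *Bag1* and *B3gnt8* (r = 0.978, 0.978 and 0.975), for *Hes1* those of *Tirap*, *Akap1* and *Cpn2* (r = 0.9404, 0.935 and 0.932) and for *Notch3* those of *Gm36210*, *Pi16* and *Gm19345* (r = 0.884, 0.861 and 0.855).

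The letters of motifs for RBPJ, RUNX and ETS factors were searched on both strands of the tiles. The RBPJ core TGGGAA occurred in 39.97% of all tiles, 45.1% of tiles of the 6 genes, 18 of 31 called higher in B cells (58.1%) and 19 of 35 called higher in T cells (54.3%). The ETS core AGGAAG occurred in 47.5% of all tiles, 48.2% of tiles of the 6 genes, 61.3% of those higher in B cells and 57.1% of those higher in T cells. For the RUNX core TGTGGT the shares were 32.7, 32.7, 38.7 and 22.9%. The sequences of *Notch1* exon 25 and *Dtx1* exon 3 printed above each hold 1 match to the RBPJ core, and the other printed sequences hold none. A match is a run of letters and not evidence of a bound factor.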

How the data were processed

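DNA methylation was measured in 16 libraries, 8 of B cells and 8 of T cells, grouped by the labels. Per the labels, the submitters' processing notes name Trim Galore 0.6.0, Bismark 0.20.0 and SAMtools 1.3.1 with mm10 (GRCm38). The values deposited by the authors are counts of unmethylated and methylated calls per CpG, summed over its strands and not normalized. Gene positions came from GENCODE vM21. Positions off the chromosomes or not at a CpG of the reference were left out.

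Calls were pooled per library over tiles, promoters, upstream regions and gene bodies. Libraries under 20 calls were set aside, and features needed 3 CpGs and 5 remaining libraries per cell type. The quasi-binomial logistic model used cell type, sex and assay, an F test on deviance and a Pearson dispersion of at least 1, and assays were compared within a cell type with sex as covariate. The model was tested on simulated data. Intervals and limits cover counting error only.

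Named were all 6 genes, the called tile with the largest difference in each direction, or the largest of all where none was called, the least methylated tile per cell type, the 2 longest runs of called tiles with gaps of at most 1 tile, pathway genes with a called promoter or among the 5 with the most called tiles, and the 3 most alike genes. A pathway gene that the rule also names is not reported here. Sequences were stretches of at most 300 bp with the most CpGs. The **Dtx1** exon 3 sequence, the further runs and tiles, the pathway genes with an upstream region higher in T cells and the tiles with wide assay differences were added after their values were seen. The genes and lists were chosen with earlier results of these data known. Alternatives covered tile length and grid, coverage, limits, windows, covariates, model, each assay or sex alone and each library left out. Promoters at principal transcripts, assay tiles, upstream regions and gene bodies without a limit, and fits without both male BS libraries of B cells were chosen after seeing the data. Python 3.11.15, NumPy 2.4.6, SciPy 1.17.1 and Matplotlib 3.10.9 were used.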

Additional observations from a re-analysis of the deposited data

Results flagged for a closer look

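Of 56 groups of 8 libraries at the named regions and tiles, 3 held a library far from the others by Dixon's criterion, which chance meets in about 1 of 20 groups. Upstream of *Notch4*, the T cell female BS library 13 stood at 81.7% (95% Wilson interval 79.4 to 83.8%), with the next library at 78.3% and the lowest at 77.3%. In the *Hes1* body, the B cell male oxBS library 2 stood at 7.24% (5.64 to 9.25%), with the next at 3.79% and the lowest at 1.62%. In the *Notch3* intron 2 tile at 32163501, the B cell female oxBS library 11 stood at 17.8% (9.29 to 31.3%, 45 calls), with the next at 29.0% and the highest at 39.0%. Leaving that library out did not change whether the region or tile was called, but it brought the uncalled *Hes1* body difference from 0.972 to 0.423 points.

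The difference between B and T cells differed between BS and oxBS libraries at 2 gene bodies by the test of that contrast. It was -4.76 points at *Notch1* and -8.88 points at *Dtx1*, as the BS minus the oxBS difference.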

How the results depend on the processing

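No paired analysis was possible because the library numbers run from 1 to 16 and no number occurs in both cell types.

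Of the 66 called tiles of the 6 genes, those still tested kept their sign under every alternative for which tiles were matched, and between 61 and 65 of them were called again when a single library was left out. The counts with B cells higher and with T cells higher were 15 and 21 with 1000 bp tiles, 5 and 14 with BS libraries alone, 19 and 12 with oxBS libraries alone, 48 and 56 with a limit of 10 points, 14 and 14 with 30 points, 57 and 64 with no limit, and 29 to 31 and 32 to 36 with a library left out. The largest tiles of *Notch1* exon 25, *Notch2* intron 2 and *Dtx1* intron 2 were called under each alternative in which they were tested.

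With promoters of 2 kb to either side, 1 was called higher in B cells (*Notch1*). Uncalled promoter differences changed sign for *Notch1* (-1.66 points with BS libraries alone, -3.26 with 500 bp to either side), *Notch2* (-0.0123 with 500 bp, -0.708 with 2 kb, -0.308 in female libraries, -0.0117 to 0.606 with a library left out) and *Hes1* (-0.566 with 2 kb, -0.0252 in female libraries). Upstream regions higher in B cells came to 1 with CpGs of at least 5 calls, oxBS libraries alone or no limit, and to 0 to 1 in each direction with a library left out. Gene bodies higher in B cells came to 0 with BS libraries alone and those higher in T cells to 2 with no limit. The *Notch4* body changed sign with BS libraries alone (-0.754 points).

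Gene bodies with BS above oxBS in T cells came to 0 in male or female libraries alone, 0 at 500 bp tiles, and 1 to 2 of 3 with a library left out, 1 without T cell library 13. The *Dtx1* call held in all 8 such fits. Uncalled assay differences changed sign at *Dtx1* in B cells (0.542 points in female libraries, -1.78 to 1.27 with a library left out), *Notch4* in T cells (-1.80 in male libraries, -0.232 to 2.25) and *Hes1* in T cells (-0.538 in male libraries, -0.193 to 0.281). The cause of these changes was not tested. At 5.64 to 7.80 calls per CpG, levels rest on regions of several CpGs. Of 1517 alternative values, 1374 were taken as unchanged. For a tested difference this meant the same direction and side of the threshold, and for a count a value equal or close to the main count. A difference without a test had to stay within the spread between libraries.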
